A study of Homo sapiens with 8 samples.

Results

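The replication-dependent histone genes encode the core histones H2A, H2B, H3 and H4, which wrap DNA into nucleosomes, and the linker histone H1, which binds between them. They were taken from the count table by symbol, as H1-1 to H1-5 and all H2AC, H2BC, H3C and H4C genes. This gave 65 of 39533 rows, of which 5 encode H1, 16 H2A, 17 H2B, 13 H3 and 14 H4. The libraries come from HCT116, an established line of human colorectal cancer. The cells were recovered from a self-seeding model, in which tumour cells that have entered the blood return to their tumour. The groups are tumour self-seeded cells (TSC, 3 libraries) and primary tumour cells (PC, 3 libraries), both labelled as primary tumour, and circulating tumour cells (CTC, 2 libraries), labelled as blood. All groups thus share 1 cell line, and no treatment or genotype is labelled. The title of the series names liver cancer where the labels name a colorectal line. The sources used here do not give the host, the sort that separated the groups or any pooling. No label says that replicates came from separate animals, so p-values measure only the spread between these libraries, which may be technical.

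These genes lie in clusters, lack introns in most cases and are transcribed mainly in S phase, when new DNA has to be packaged. Their mRNAs usually end in a conserved stem-loop in place of a poly(A) tail. The stem-loop binding protein SLBP holds that end through processing, translation and decay, and the exonuclease ERI1 trims it. The libraries were made from total RNA depleted of ribosomal RNA, a preparation that keeps transcripts without a poly(A) tail.

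Where the transcript models reach past the coding sequence, the stem-loop can be read from them. A search for GGNNNTTNTNANNNCC in the last 120 bases of the members' GENCODE release 29 transcripts found it in 12 members, and in 0.182% of 83053 protein-coding transcripts of other genes. Most member models stop at or near the end of the coding sequence, so the absence of a match says nothing about a gene. The 2 commonest forms are shown because they separate by family among the few members with a match. The stems are in capitals and the loop in lower case.
H2A and H2B form (7 members, H2AC13 and H2BC15 among them): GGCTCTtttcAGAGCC
H4 form (3 members, H4C2, H4C8 and H4C11): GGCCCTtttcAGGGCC
H2BC5 and H3C6 each carried a form of their own.

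Promoter motifs were also counted by family. The 4 motifs were searched on both strands of the 250 bases before the RefSeq gene start (build GRCh38.p14), where 60 of the 65 members had an entry. The octamer ATTTGCAT, the site known for POU-family activators of H2B genes, was found in 14 of 17 H2B and 11 of 15 H2A windows, in 1 of 11 H3 windows (that of H3C4, which in the table is the same window as that of H2AC7) and in 0 of the 5 H1 and 12 H4 windows, against 1.66% of all 27305 promoters. The AC box AAACACA was in 5 of 5 H1 windows and in 0 of the other members, against 4.95% of all promoters. CCAAT was in every H1, H2A, H2B and H3 window and in 3 of 12 H4 windows, against 33% of all promoters. TATAAA was in 41 of 60 members, against 11.1% of all promoters. It can match both strands at 1 place, as in TTTATAAA.

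The windows of H2BC11 (chr6:27132796-27133045, minus strand) and H2AC15 (chr6:27838376-27838625, minus strand) are shown because both genes were lower in CTC, and that of H1-4 (chr6:26156079-26156328, plus strand) as the H1 gene with the highest mean level per kilobase of coding sequence over the 8 libraries. Capitals mark matches to the 4 motifs.
H2BC11: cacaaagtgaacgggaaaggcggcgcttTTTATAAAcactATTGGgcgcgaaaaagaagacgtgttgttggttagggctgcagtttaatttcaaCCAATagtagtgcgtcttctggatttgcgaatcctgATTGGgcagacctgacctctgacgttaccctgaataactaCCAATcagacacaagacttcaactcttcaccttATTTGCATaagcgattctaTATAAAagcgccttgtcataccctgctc
H2AC15: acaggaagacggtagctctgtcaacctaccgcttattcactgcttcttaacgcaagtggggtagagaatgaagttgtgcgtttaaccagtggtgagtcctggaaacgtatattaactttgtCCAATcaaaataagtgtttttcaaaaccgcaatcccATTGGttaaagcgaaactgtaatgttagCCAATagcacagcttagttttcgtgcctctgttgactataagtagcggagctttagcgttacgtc
H1-4: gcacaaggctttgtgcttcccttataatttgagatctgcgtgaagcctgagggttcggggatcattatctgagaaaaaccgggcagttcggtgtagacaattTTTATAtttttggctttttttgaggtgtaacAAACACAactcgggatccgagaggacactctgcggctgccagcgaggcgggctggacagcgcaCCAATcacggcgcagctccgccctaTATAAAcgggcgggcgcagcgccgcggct
The H2BC11 window holds the octamer, TATAAA and CCAAT. That of H2AC15 holds CCAAT alone, and that of H1-4 holds the AC box, TATAAA and CCAAT. H2BC11 and H2AC15 each belong to a divergent pair of an H2A and an H2B gene. Among members with a window, 10 such pairs were found, with starts 194 to 248 bases apart. H2AC12 (27147106 to 27147562), the neighbour of H2BC12 (27138293 to 27146858), had no window and was not assessed. The windows of such a pair overlap, so that 1 match can count for both genes.

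Library totals ran from 957607 counts (CTC 1) to 19264595 (PC 3), and 14255 genes passed the filter on low counts. Levels are given as CPM, in which each count is divided by its library's total after TMM scaling. Epithelial markers summed to 5190 to 9310 CPM in all 8 libraries, with EPCAM between 391 and 616 CPM and CLDN7 listed at 0. Of 16 leukocyte markers, 9 were tested and 7 rose in CTC against PC. Summed over the list, they stood at 470 and 159 CPM in CTC 1 and 2, against 9.5 to 12.9 in PC and 6.14 to 17.3 in TSC, while S100A8, S100A9 and CD3E were at 0. The 8 erythroid markers summed to 247 and 331 CPM in CTC and 50.4 to 93.5 elsewhere, with HBA2 among those at 0. Outside CTC the sum was nearly all HBD, at 50.3 to 93 CPM, against 52.9 and 78.5 CPM in CTC. HBB stood at 164 and 209 CPM in CTC and at most 0.754 CPM in PC and TSC. The part of the leukocyte and erythroid markers in the histone results was not tested.

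The members fell into those with a clear signal and those with almost none. Over all 8 libraries, 38 members had a total of 724 counts or more, and the other 27 had 154 or fewer. The dividing line of 500 counts was set after these totals were seen. The first class, called counted here, holds 2 of 5 H1, 10 of 16 H2A, 11 of 17 H2B, 7 of 13 H3 and 8 of 14 H4 genes. The filter passed all 38 counted members and 5 of the others, 43 in all.

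On a scale per length of coding sequence, a few genes stood highest in the counted class. The counts were not limited to coding sequence, so the scale compares genes only roughly and can overstate those with long transcripts. H2BC4, for example, spans 26113170 to 26123926 on chromosome 6 with 378 coding bases. The mean over 8 libraries was 1780 CPM per kb for H1-4, 1750 for H2BC4 and 1710 for H1-2, and these 3 were not tested against each other. Next came H2BC5 (1340), H2AC20 (1040), H2BC12 (1010), H3C2 (978) and H2AC11 (903). The leading H4 genes were H4C5 and H4C3 at 443 CPM per kb each. At the low end H4C12 had 27.5 and H3C6 27.2 CPM per kb. H1-4 and H1-2 supplied nearly all of the H1 signal, since H1-1, H1-3 and H1-5 had at most 19 counts each over all libraries.

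The near-zero members were often neighbours. Of the 54 members on chromosome 6 (positions 25726063 to 27893891), 21 were near zero, as were 6 of the 11 on chromosome 1 (149782689 to 149887965). The longest stretches were H1-3 to H2BC10 on chromosome 6, with 7 members in a row (26234212 to 26273412), and H4C14 to H3C15 on chromosome 1, with 6 in a row (149832657 to 149853125). H2AC16, H1-5, H3C11 and H4C13 formed a stretch of 4. H2AC1, H2BC1, H3C14 and H4C7 had 0 counts in all libraries; H2AC1 and H2BC1 are known as testis histones.

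**Figure D1:**
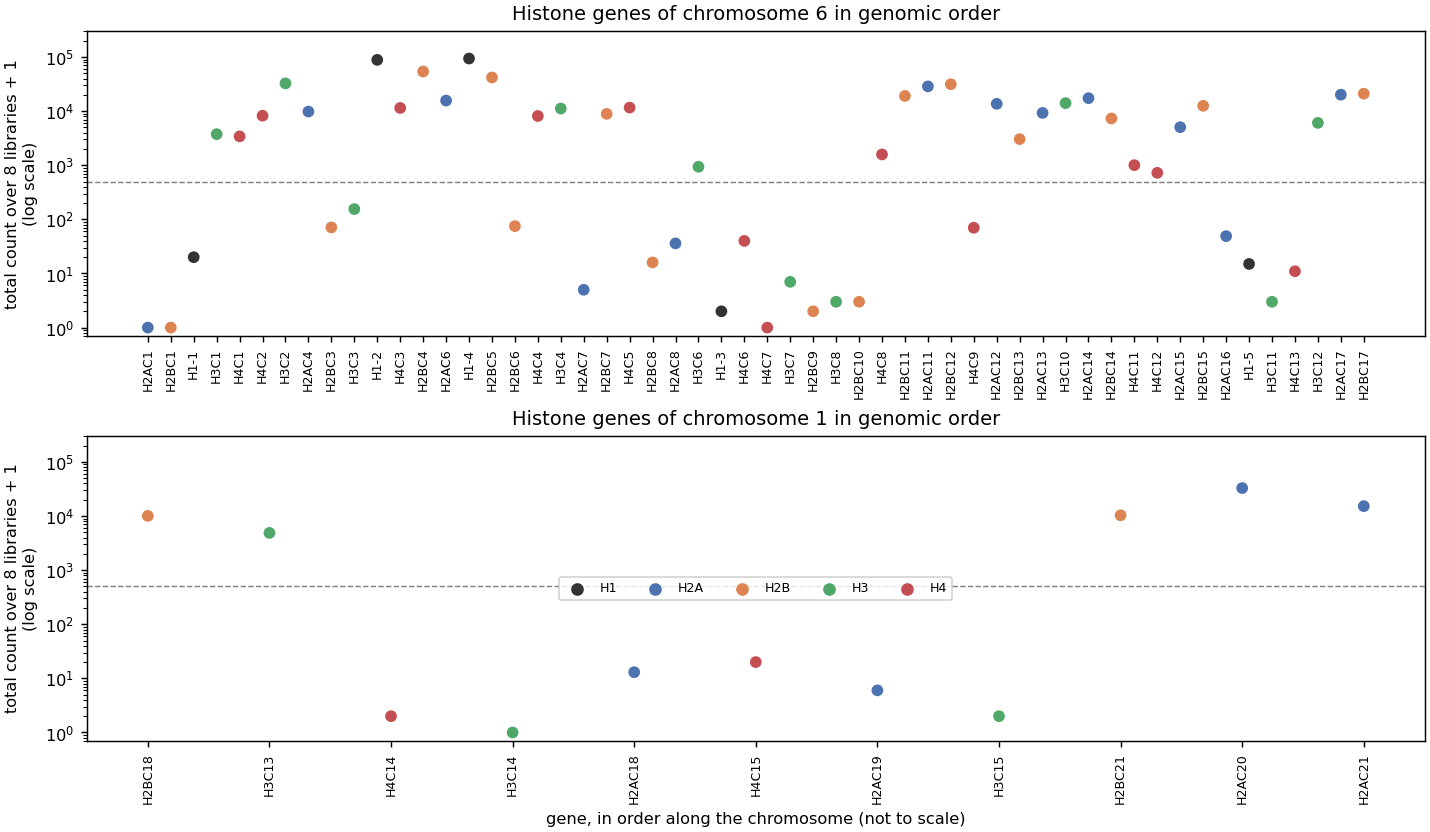
Total count over the 8 libraries plus 1 (log scale) for each histone gene, placed by its order along chromosome 6 (top) and chromosome 1 (bottom) and coloured by family; the dashed line is the dividing line of 500 counts. The 27 genes below the line form runs of up to 7 neighbours, and 4 of them sit at 0 counts.

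Some rows cannot be read as the output of a single gene. In the GENCODE transcripts, 9 of the 38 counted and 7 of the 27 near-zero members share more than 50% of their 75-base stretches with another gene, and 19 near-zero members share none. H4C14 shares 100% of its stretches with H4C15, H3C14 and H3C15 share all of theirs with H3C13 and other copies, and H4C12 shares all of its with H4C11. How reads with several positions were handled was not given in what was used here, and its part in the low counts was not tested. RNAs that most cells make in quantity were also low or absent in the table: RN7SL1 and RN7SL2 were listed at 0, and H3-3A, a replication-independent H3 gene, did not exceed 3.12 CPM. A near-zero row is therefore no evidence that a gene is silent.

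All 65 members together made up 0.452% to 1.37% of the counts in a library. Their summed level was 9550, 8330 and 6910 CPM in PC 1 to 3, 10900, 6790 and 13900 CPM in TSC 1 to 3, and 6600 and 4530 CPM in CTC 1 and 2. Both CTC libraries lay below every PC and TSC library, whereas TSC spanned the whole PC range. In bulk RNA, fewer cells in S phase and less histone RNA per cell cannot be told apart.

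The mean of each of the 5 families was lower in CTC than in PC. The mean summed level in CTC was 0.599 of that in PC for H2A, 0.623 for H4, 0.636 for H2B, 0.684 for H3 and 0.798 for H1. The families were not tested against each other, and the CTC libraries differed within a family: CTC 1 and CTC 2 stood at 0.989 and 0.607 of the PC mean for H1, 0.704 and 0.494 for H2A, and 0.653 and 0.593 for H4. H1 stood at 2490, 2090 and 1970 CPM in PC, at 2810, 1820 and 3430 CPM in TSC and at 2160 and 1330 CPM in CTC. CTC 1 thus lay within the PC range for H1 and CTC 2 below it. H2A stood at 2440, 2100 and 1600 CPM in PC, 2670, 1570 and 3530 CPM in TSC, and 1440 and 1010 CPM in CTC. Both CTC libraries were below all the others. H4 stood at 621, 588 and 421 CPM in PC, 742, 520 and 906 CPM in TSC, and 355 and 322 CPM in CTC, again with no overlap.

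As a share of all histone counts, which does not depend on the scaling of libraries, H1 took 32.7% (95% exact binomial interval 31.6 to 33.9) in CTC 1 and 29.2% (28.8 to 29.7) in CTC 2. It took 25.1% to 28.6% in PC and 24.6% to 26.8% in TSC, so the CTC shares lay above all 6 others, with a gap to PC 3 that was small beside the spread within PC. H2A took 21.8% and 22.3% in CTC, 23.2% to 25.5% in PC and 23.1% to 25.3% in TSC. The H2B share was 29.7% and 30.5% in CTC and 31.4% to 32.6% elsewhere. The H3 and H4 shares overlapped between the groups. The intervals cover counting error only.

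**Figure D2:**
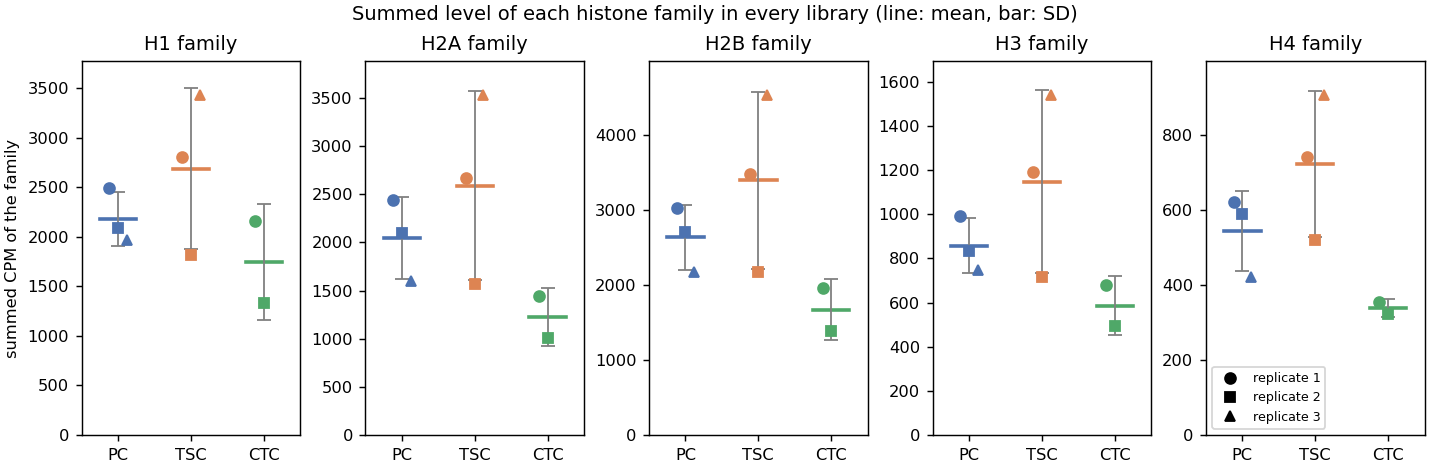
Summed CPM of each histone family in every library, by group; points are libraries, shapes are replicate numbers, lines are group means and bars are SD (PC and TSC n = 3, CTC n = 2). For H2A, both CTC libraries (1440 and 1010 CPM) lie below all PC and TSC libraries, and TSC replicate 2 is the lowest TSC library in every family.

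In circulating against primary tumour cells, 3 genes of the counted class fell in CTC: H4C3, which encodes H4, H2BC11, which encodes H2B, and H2AC15, which encodes H2A. All 38 counted members had a log2 fold change below 0, with a median of -0.71, where the median of all tested genes was -0.04 and 52.6% of them were below 0. By family the counted medians were -0.90 for H2A, -0.75 for H4, -0.62 for H2B, -0.54 for H3 and -0.34 for H1. The H1 median was -0.73 without CTC 1, -0.03 without CTC 2 and -0.22 without PC 1, and the H3 median was -0.82 without CTC 1 and -0.34 without CTC 2.

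H4C3 (chromosome 6, 26103933 to 26104337) stood at 149, 144 and 97.8 CPM in PC 1 to 3 and at 67.8 and 62.2 CPM in CTC 1 and 2. The groups did not overlap, and the log2 fold change was -1.01 ± 0.25 (SE; edgeR's quasi-likelihood test, Benjamini-Hochberg adjusted p = 0.0366). H2BC11 (chromosome 6, 27132316 to 27132795) stood at 285, 262 and 182 CPM in PC and at 133 and 93.7 CPM in CTC. Again every CTC library was below every PC library (-1.13 ± 0.28, adjusted p = 0.0400). H2AC15 (chromosome 6, 27837880 to 27838375) stood at 78, 57.2 and 48.7 CPM in PC and at 24.9 and 24.4 CPM in CTC, the largest fall of a counted member (-1.32 ± 0.34, adjusted p = 0.0427).

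The divergent partners of the last 2 genes did not pass the test. H2AC11, the partner of H2BC11, had a log2 fold change of -0.68 ± 0.30 (adjusted p = 0.195). H2BC15, the partner of H2AC15, had -0.56 ± 0.25 (adjusted p = 0.189). Whether partners differed in their change was not tested.

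The most abundant members did not pass the test. H1-4 stood at 1210, 1000 and 1020 CPM in PC and at 1150 and 722 CPM in CTC, with a log2 fold change of -0.20 ± 0.24 (adjusted p = 0.639). H1-2 stood at 1270, 1090 and 956 CPM in PC and at 1010 and 602 CPM in CTC (-0.47 ± 0.27, adjusted p = 0.313). For both H1 genes CTC 1 lay within the PC range. H2BC4 stood at 767, 669 and 516 CPM in PC and at 480 and 336 CPM in CTC, without overlap but short of the threshold (-0.68 ± 0.29, adjusted p = 0.173). Among H3 genes, H3C2 stood at 412, 344 and 342 CPM in PC and 300 and 208 CPM in CTC (-0.54 ± 0.27, adjusted p = 0.241). H3C1 was the counted member nearest to no difference, with 51.3, 40.5 and 32.3 CPM in PC and 40.9 and 40.4 CPM in CTC (-0.02 ± 0.34, adjusted p = 0.973).

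With H4C9, which was higher, 4 of the 43 tested members were called, against 3.92% of all tested genes. The 3 lower members stand beside 2.52% of all genes and the 1 higher beside 1.40%. At an unadjusted p under 0.05 there were 22 lower members, against 13.9% of all genes, and 24 members lay lower in CTC without overlap, against 24.7%. Over the 38 counted members the median ratio to the PC mean was 0.734 in CTC 1 and 0.525 in CTC 2. H4C9 is a near-zero member with 2, 2 and 0 counts in PC 1 to 3, and 5 and 50 counts in CTC 1 and 2 (4.99 and 4.77 CPM). Its log2 fold change of 5.38 ± 1.31 (adjusted p = 0.0363) rests on these few counts and on the prior count of the fit, and the gene lies within the span of H2BC12. The number of calls turned on single libraries: it was 0 without PC 1, PC 2 or CTC 2, 2 without PC 3, CTC 1 or TSC 3, 9 without TSC 1 and 11 without TSC 2. Without CTC 1 the median of the counted members was -0.93 and without CTC 2 it was -0.45. Leukocyte and erythroid markers rose in CTC against PC, but the 2 lists differed between the CTC libraries. The leukocyte list stood at 470 CPM in CTC 1 and 159 CPM in CTC 2, and the erythroid list at 247 and 331 CPM. The summed histones stood at 6600 and 4530 CPM in the same order. The part of these markers in the falls was not tested.

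**Figure D3:**
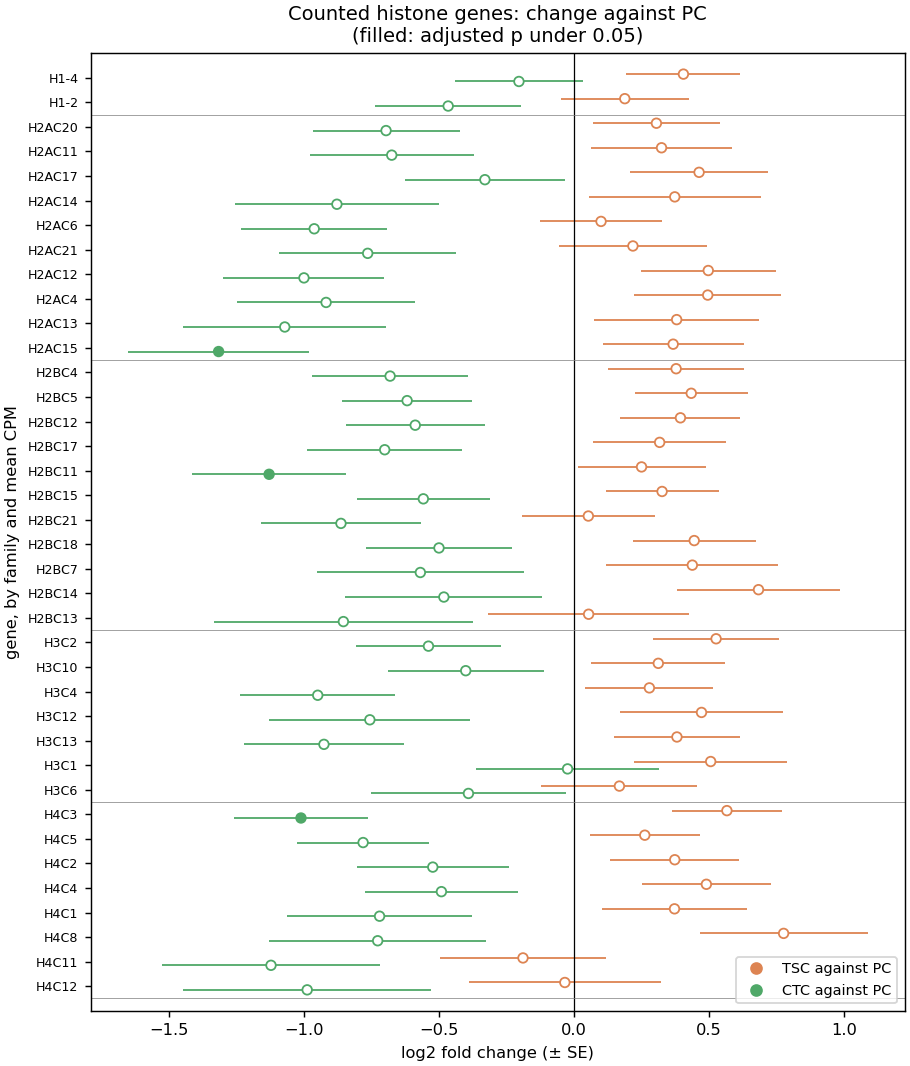
Log2 fold change (± SE) against PC of each of the 38 counted histone genes in TSC and in CTC, by family and mean level; filled points have an adjusted p under 0.05, and both series share the PC libraries. All CTC points lie below 0 and 36 of 38 TSC points above 0, with H2AC15, H2BC11 and H4C3 as the filled ones.

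Self-seeded against primary tumour cells gave higher values for most counted members but no call. Of the 38 counted members 36 had a log2 fold change above 0, with a median of 0.37, against 0.01 for all tested genes, of which 50.7% were above 0. The family medians were 0.30 for H1, 0.37 for H2A, 0.38 for H2B, 0.38 for H3 and 0.37 for H4, and H4C11 and H4C12 were the 2 members below 0. By edgeR's quasi-likelihood test 0 of 43 tested members were called, against 0.505% of all genes, and 5 had an unadjusted p under 0.05, against 10.3%. DESeq2 called 0 and limma-voom 3, namely H2BC14, H3C2 and H4C3.

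The 3 TSC libraries did not behave alike. Over the 38 counted members the median ratio to the PC mean was 1.33 in TSC 1, 0.813 in TSC 2 and 1.72 in TSC 3. H3C2 stood at 557, 328 and 698 CPM in TSC 1 to 3, against 342 to 412 in PC (0.53 ± 0.23, adjusted p = 0.458). H4C8 had the largest difference among counted members, with 32.3, 15.7 and 38.5 CPM in TSC and 18.5, 19.9 and 12.1 CPM in PC (0.78 ± 0.31, adjusted p = 0.412). H2BC14 stood at 119, 65.6 and 192 CPM in TSC and 87.8, 80.2 and 66.5 CPM in PC (0.68 ± 0.30, adjusted p = 0.456). In all 3 genes TSC 2 was below at least 1 PC library, so the groups overlapped. The median of the counted members was 0.09 without TSC 3, 0.60 without TSC 2 and 0.22 without PC 3. By family it ran from 0.03 (H2A) to 0.14 (H4) without TSC 3 and from 0.51 (H1) to 0.65 (H2A) without TSC 2, and without PC 3 it was 0.19 for H2A and H4 and 0.25 for H3.

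H3C3, a near-zero member, was the only one whose TSC libraries did not overlap PC, on the lower side, where 9.90% of all genes did so. It had 0, 0.847 and 0.724 CPM in TSC and 3.52, 4.05 and 1.87 CPM in PC (-2.37 ± 0.95, adjusted p = 0.412). H3C3 passed the filter on low counts through PC, where it is high, so these values are no support for a fall.

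Set directly against each other, self-seeded cells exceeded circulating cells in 4 of the 43 tested members. Of all genes, 0.898% were called in this comparison and 0.372% were called as higher in TSC. H4C3 stood at 203, 147 and 228 CPM in TSC and 67.8 and 62.2 CPM in CTC, with a log2 fold change of 1.58 ± 0.25 (edgeR, adjusted p = 0.0075). H2AC15 stood at 74, 50 and 113 CPM in TSC against 24.9 and 24.4 CPM in CTC (1.68 ± 0.34, adjusted p = 0.0335). H2AC12, a further H2A gene (chromosome 6, 27147106 to 27147562), stood at 240, 153 and 284 CPM in TSC and 76.8 and 82.4 CPM in CTC (1.5 ± 0.30, adjusted p = 0.0343). H2BC11 stood at 294, 197 and 376 CPM in TSC and 133 and 93.7 CPM in CTC (1.38 ± 0.29, adjusted p = 0.0382). In each of these 4 genes the lowest TSC library lay above both CTC libraries.

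All 38 counted members were higher in TSC than in CTC, with a median log2 difference of 1.01, against 0.06 for all tested genes, of which 55.0% were higher. At an unadjusted p under 0.05, 34 members were higher, against 10.3% of all genes, and 26 were higher without overlap, against 15.4%. By family the median was 1.16 for H2A, 1.06 for H3, 1.01 for H4 and H2B and 0.63 for H1. The H1 median was 0.39 without TSC 3, 1.02 without CTC 1 and 0.32 without CTC 2. H1-4 and H1-2 were again among the smaller differences, at 0.61 ± 0.24 (adjusted p = 0.226) and 0.65 ± 0.27 (adjusted p = 0.247). The number of calls was 0 without TSC 3 or CTC 2, 1 without PC 2 or CTC 1, 10 without TSC 1 and 24 without TSC 2.

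Among the genes that make and degrade histone mRNA, ERI1 rose in both groups against PC. This exonuclease, which binds the histone stem-loop beside SLBP and trims the 3′ end, stood at 12.2, 9.93 and 12.1 CPM in PC 1 to 3, 31.6, 26.9 and 28.3 CPM in TSC 1 to 3 and 34.9 and 29.8 CPM in CTC 1 and 2. No TSC or CTC library overlapped PC. ERI1 rose in TSC by a log2 fold change of 1.33 ± 0.21 (edgeR, adjusted p = 0.0113) and in CTC by 1.47 ± 0.25 (adjusted p = 0.00664), comparisons that share the PC libraries. Between TSC and CTC the difference was -0.14 ± 0.25 (adjusted p = 0.824). ERI1 was thus higher than in PC both in the group with lower and in the group with mostly higher histone levels. Its call against PC was lost in TSC without TSC 3 or any 1 PC library (adjusted p up to 0.116) and in CTC without CTC 2 (0.0772).

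ERI1 was the only called gene among the 21 of 22 tested in that list, in either comparison with PC, and 0 were called between TSC and CTC by edgeR. At an unadjusted p under 0.05 there were 3, 7 and 4 of the 21 in TSC against PC, CTC against PC and TSC against CTC, against 10.3%, 23.6% and 16.7% of all genes. SLBP stood at 165, 164 and 146 CPM in PC, 227, 163 and 177 CPM in TSC and 185 and 243 CPM in CTC, with a log2 fold change of 0.45 ± 0.20 in CTC against PC (adjusted p = 0.192). Its CTC values were above all PC values, opposite in sign to the histone genes. NPAT, the coactivator of histone transcription, had 0.03 ± 0.26 in CTC against PC (adjusted p = 0.96). RNU7-1, the RNA of the U7 particle that cuts histone pre-mRNA, was listed at 0.

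Genes of DNA replication, which are active in the phase in which these histones are made, were compared as a list of 22. They summed to 5240, 3450 and 5030 CPM in TSC 1 to 3, so TSC 2 was the lowest, as for the histones. The same list summed to 3940, 3910 and 3580 CPM in PC and to 3490 and 4010 CPM in CTC, just below the PC range in CTC 1 and just above it in CTC 2. None was called by edgeR in any comparison, and 2, 1 and 2 of the 22 had an unadjusted p under 0.05 in TSC against PC, CTC against PC and TSC against CTC, where 10.3%, 23.6% and 16.7% of all genes did. Their medians were 0.27, -0.03 and 0.25 on the log2 scale. PCNA, the sliding clamp of replication, had 0.11 ± 0.25 in CTC against PC (adjusted p = 0.819), and MCM2, a subunit of the replicative helicase, had -0.21 ± 0.20 (adjusted p = 0.569). Of the 16 G2 and mitosis genes, 0 were called by edgeR, and 3, 8 and 4 had an unadjusted p under 0.05, beside the same shares of all genes. Their median was 0.36 in CTC against PC, where that of all genes was -0.04. MKI67, a marker of cycling cells, went the other way, with 933, 798 and 895 CPM in PC and 338 and 283 CPM in CTC (-1.5 ± 0.48, adjusted p = 0.0853), and it ran from 186 to 1130 CPM within TSC.

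Of 6 tested nuclear and nonadenylated noncoding RNAs, 3 fell in CTC against PC, namely TERC, RMRP and RPPH1. TERC, the telomerase RNA, stood at 315, 289 and 289 CPM in PC and 128 and 129 CPM in CTC (-1.22 ± 0.23, edgeR adjusted p = 0.0135). RMRP, the RNA of RNase MRP, stood at 6590, 5410 and 2780 CPM in PC and 2170 and 2430 CPM in CTC (-1.10 ± 0.27, adjusted p = 0.0348), and RPPH1, the RNA of RNase P, fell by 0.95 ± 0.24 (adjusted p = 0.0373). The other three did not pass the test: RN7SK had -0.73 ± 0.21 (adjusted p = 0.065), NEAT1 -0.73 ± 0.48 (adjusted p = 0.375) and MALAT1 -0.13 ± 0.30 (adjusted p = 0.835). MALAT1 stood at 9210 CPM in CTC 1, above every PC library, and the summed list in CTC 1 (15200 CPM) lay within the PC range (14100 to 21700 CPM). The median of the 6 was -0.84, against -0.04 for all genes, of which 2.52% were called lower. TERC and RPPH1 were also called between TSC and CTC. Against PC, the call of TERC was lost without CTC 2, and those of RMRP and RPPH1 without TSC 3, PC 1, PC 2, CTC 1 or CTC 2. Between TSC and CTC, the call of TERC was lost without any 1 library except TSC 1 (edgeR adjusted p up to 0.182), and that of RPPH1 without any 1 except TSC 1 and PC 3 (up to 0.196). Their part in the histone result was not tested. The 6 counted members that are also known to make polyadenylated mRNA (H1-2, H2AC6, H2BC4, H2BC5, H2BC12 and H2BC21) had a median of -0.65 in CTC against PC, and the other 32 had -0.72.

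**Figure D4:**
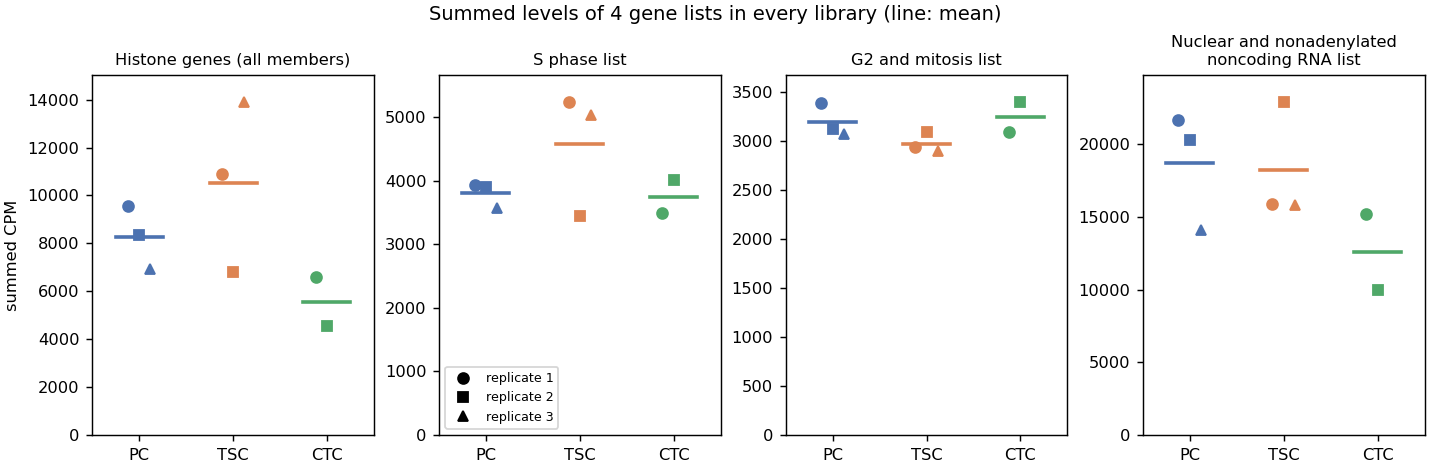
Summed CPM in every library of all histone genes, the S phase list, the G2 and mitosis list and the list of nuclear and nonadenylated noncoding RNA; points are libraries, shapes are replicate numbers and lines are group means. TSC replicate 2 is the lowest TSC library for the histones (6790 CPM) and for the S phase list (3450 CPM), and both CTC libraries lie below all PC libraries for the histones but not for the other 3 lists.

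A list taken as replication-independent histones was also compared, with H2AX and CENPA among them. Of 12 tested genes, 1 rose in CTC against PC, where 1.40% of all genes were called higher. This was H2AJ, an H2A gene, at 14, 14.4 and 16.8 CPM in PC and 32.9 and 27.5 CPM in CTC (0.97 ± 0.26, adjusted p = 0.049). This call was lost without TSC 3 and without any 1 of the PC or CTC libraries. H2AZ1 (0.21 ± 0.22, adjusted p = 0.582) and H3-3B (0.09 ± 0.18, adjusted p = 0.815) did not pass the test. The median of these 12 genes was 0.01. Of 15 tested histone chaperones, which carry histones to DNA, 0 were called by edgeR in CTC against PC. At an unadjusted p under 0.05 there was 1, against 23.6% of all genes. The chaperone median was 0.22, where that of all genes was -0.04. ASF1B and IPO4 were listed at 0.

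Across the 8 libraries, the genes whose log2 CPM ran most like the summed histone level, of 5866 candidates, included DYNC2I2 (Pearson's r 0.914), BARD1 (0.896), GAMT (0.893) and MCM2 (0.891). MCM2 ran from 235 CPM in CTC 2 to 404 CPM in TSC 3, with its lowest and highest values in the same libraries as the histones. By the same measure PCNA had 0.571, SLBP -0.203 and MKI67 -0.00664. These correlations describe 8 libraries that share groups and depth, and they carry no test.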

How the data were processed

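RNA was measured in 8 libraries grouped by their titles. The authors deposited raw counts for each gene. The submitters' processing notes name STAR 2.5.3a, featureCounts 1.5.3 and build hg38. The annotation, the strand setting and the handling of reads with several positions were not given in the sources used here.

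The 8 libraries entered 1 model by group in edgeR 4.0.16 (R 4.3.3; filterByExpr, TMM, glmQLFit, glmQLFTest), so CTC shares the estimate of spread. Calls use an adjusted p (Benjamini-Hochberg, over 14255 genes) under 0.05, and every adjusted p printed is edgeR's. The SE is the log2 fold change divided by the square root of F. The scripts were tested on simulated data. By a chi-square of counts, run for pairs within a group only, 0 library pairs agreed within sampling noise.

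The members and the lists were chosen with earlier results of these data known. The genes named are the 3 most abundant of each family, every called member, the 5 members with the smallest p in each comparison, the leading genes of each list, the 5 most like the summed histones and a set of known genes; some are not reported here, and others were picked after their values were seen. Intervals are at 95%, and a count of 0 allows 3 counts, which is 2.99 CPM in CTC 1 and 0.156 to 0.668 CPM elsewhere. Positions are those of RefSeq (GRCh38.p14), 1-based. All 65 members matched RefSeq and GENCODE release 29. The alternatives were DESeq2 1.42.0 (Wald test, and its size factors), limma 3.58.1 (voom with quality weights), 2 other filters, fits of 2 groups, a replicate block, another library size and each library left out.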

Additional observations from a re-analysis of the deposited data

Results flagged for a closer look

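In 4 members the difference from PC was unequal in TSC and CTC by the test of that difference itself, which is the comparison of TSC with CTC. The TSC effect minus the CTC effect was 1.58 on the log2 scale for H4C3, 1.68 for H2AC15, 1.5 for H2AC12 and 1.38 for H2BC11.

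In 5 near-zero members outside the tests, a single library held a signal whose lower 95% exact Poisson limit lay above the upper limit of every PC library. The limits cover counting error only. H2AC16 had 4.20 CPM (44 counts) in CTC 2, H4C6 had 3.15 CPM (33 counts) in CTC 2 and H1-5 had 1.14 CPM (12 counts) in CTC 2. H4C13 had 4.99 CPM (5 counts) in CTC 1, the shallowest library, and H4C15, which is nearly identical to H4C14, had 1.09 CPM (12 counts) in TSC 3.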

How the results depend on the processing

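Scaling by DESeq2 size factors, and library sizes without histone, mitochondrial and small noncoding genes, left the number of called members at 4, 4 and 0 for CTC against PC, TSC against CTC and TSC against PC. For CTC against PC the number was 23 with no filter on low counts, 1 with the stricter filter, 10 with DESeq2's Wald test, 18 with limma-voom and 14 with only the libraries of the 2 groups. For TSC against CTC it was 35, 1, 23, 31 and 2 in the same order. For TSC against PC it was 3 with limma-voom and 0 otherwise. With 1 library left out the number ran from 0 to 11 for CTC against PC, from 0 to 24 for TSC against CTC, and stayed at 0 for TSC against PC.

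Deviations from the group means were correlated between libraries of different groups. With a shared replicate number the correlations ran from -0.134 to 0.0943, and with different numbers from -0.172 to 0.167. Deviations from a mean of 2 or 3 libraries are tied to each other. These values therefore cannot decide whether the numbers pair libraries. With a replicate block in the fit, 0 members were called in CTC against PC, 1 in TSC against CTC and 0 in TSC against PC. No called value reversed. In all, 1133 of 1336 refitted values of single genes kept their side of the threshold. Uncalled values among them could change sign, as H1-2 did in TSC against PC (0.188, lowest refit -0.094). CTC has 2 libraries, and CTC 1 has the fewest counts, so small differences in low genes were not detectable there.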
